A study of Mus musculus with 8 samples.

Results

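Kupffer cells are the resident macrophages of the liver. They line the walls of the sinusoids, take up bacteria, complement-coated particles, dying cells and worn red blood cells from the passing blood, and are kept alive by CSF1 receptor signalling. In mouse liver they are recognised by a small set of receptors and secreted proteins. Of these, 10 genes were followed here: the receptors Clec4f, Vsig4, Timd4 and Marco, the secreted protein Cd5l, the complement C1q subunits C1qa, C1qb and C1qc, the growth factor receptor Csf1r, and Adgre1, which encodes the macrophage antigen F4/80. They were chosen by symbol as known markers of these cells, with earlier results of these data known, and all 10 were found among the 49671 genes of the count table and among the 13117 genes with enough reads to be tested.

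The RNA came from whole livers of mice labelled as strain C57BL/6, given as C57BL/6N in the study's methods, and as taken post weaning. There were 4 groups of 2 libraries each, from WT and NT-KO males and from WT and NT-KO females. NT-KO mice were homozygous for a CRISPR/Cas9 deletion that removes the canonical start codon of Lbr, the gene of the lamin B receptor, with part of the intron before it. The truncated protein predicted from it keeps the sterol reductase part and lacks the N-terminal domains. The study reports Western blot and mass spectrometry in support of the predicted start site. Its discussion also names a severe reduction of the protein as a likely part of the phenotype. The deletion is present in every cell type of the mouse, it descends from one male founder that was crossed to C57BL/6N, and the WT groups carry no transgene or treatment. No macrophages were isolated, so all values are levels in RNA of the whole organ. The comparisons ask whether the truncation of Lbr altered the level of Kupffer cell transcripts in either sex, and how these transcripts differed between the sexes.

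Library totals ranged from 45020377 to 64396291 reads counted in genes. The floor of 3 counts corresponded to 0.0477 to 0.0767 CPM, where CPM is the count per 1000000 reads in tested genes after TMM scaling of library size. Xist lay at 0.783 to 3.48 CPM in the libraries labelled male and at 853 to 1050 CPM in those labelled female. Lbr, counted over the whole gene and therefore no measure of the deleted stretch, lay at 7.08 to 8.66 CPM in the WT libraries and at 13.8 to 15.2 CPM in the NT-KO libraries. Libraries of the same group differed by far more than counting error, with a chi-square per degree of freedom of 83.1 to 215. The numbering of the libraries in the labels follows sex, so library order and sex cannot be told apart.

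All 10 transcripts were present in every library. Compared per kilobase of exon, they fell into a high, a middle and a low range. The exon length was taken over all annotated transcripts of a gene together. Cd5l, which encodes a scavenger protein of the blood also called AIM, had the highest mean at 42.4 ± 11.5 CPM per kilobase (SD, n = 8). Clec4f, a lectin receptor found on Kupffer cells, followed at 40.7 ± 9.84, C1qa at 40.1 ± 7.69 and C1qb at 38.0 ± 8.57. Neighbours within these top 4 could not be ordered: Cd5l exceeded Clec4f in 4 of 8 libraries, Clec4f exceeded C1qa in 5 and C1qa exceeded C1qb in 6. C1qc at 24.5 ± 5.04 lay below C1qb in all 8 libraries. Vsig4, a receptor for complement fragments, came next at 18.3 ± 4.04, and Csf1r at 6.62 ± 1.75, each below the gene before it in all 8. Adgre1 at 2.99 ± 0.648 and Timd4 at 2.92 ± 0.643 were not separated, with Adgre1 the higher in 5 of 8. Marco, a scavenger receptor for bacteria, had the lowest level in all 8 libraries, at 1.26 ± 0.54.

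Among the receptors, the level of Clec4f (ENSMUSG00000014542) was 62.5 and 83.5 CPM for WT males, 110 and 70.9 for NT-KO males, 123 and 116 for WT females, 117 and 121 for NT-KO females. All 4 female libraries lay above all 4 male libraries, and the genotypes overlapped in both sexes. The female values were close together, at 120 ± 3.22 CPM (SD, n = 4), whereas the male values spread over 81.7 ± 20.8.

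Vsig4 (ENSMUSG00000044206) is an X-linked gene whose product, also called CRIg, binds C3b and iC3b on particles and clears them from blood. It was measured at 17.1 and 23.6 CPM for WT males, 27.9 and 22.1 for NT-KO males, 33.8 and 32.7 for WT females, 27.4 and 33.2 for NT-KO females. The sexes overlapped by a narrow margin, since the first female NT-KO library lay just below the first male NT-KO library.

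Timd4 (ENSMUSG00000055546) encodes TIM-4, a receptor for phosphatidylserine on dying cells that marks Kupffer cells of embryonic origin. Its level was 3.53 and 6.62 CPM for WT males, 6.01 and 5.28 for NT-KO males, 7.88 and 6.90 for WT females, 6.98 and 7.50 for NT-KO females. Every female library was above every male library. The first male WT library was well below the other 7.

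Marco (ENSMUSG00000026390) had values of 0.554 and 1.89 CPM for WT males, 1.63 and 2.74 for NT-KO males, 3.23 and 2.35 for WT females, 3.35 and 3.66 for NT-KO females. These rest on few reads. The lowest value, in the first male WT library, was 29 counts, with an exact Poisson 95% interval of 19.4 to 41.6 counts or 0.371 to 0.796 CPM, which covers counting error only. That interval lay below the value of every other library. The second male NT-KO library fell among the female values.

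Cd5l (ENSMUSG00000015854) was at 42.9 and 89.1 CPM for WT males, 86.8 and 68.8 for NT-KO males, 87.0 and 102 for WT females, 90.9 and 123 for NT-KO females. Here the second male WT library exceeded the first female WT library, so the sexes overlapped.

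The chains of C1q, the recognition unit of the classical complement pathway, are made in liver mainly by macrophages. C1qa (ENSMUSG00000036887) lay at 27.1 and 37.9 CPM for WT males, 40.8 and 36.5 for NT-KO males, 51.6 and 45.4 for WT females, 43.9 and 50.4 for NT-KO females. For C1qb (ENSMUSG00000036905) the values were 26.9 and 39.5 for WT males, 37.3 and 30.2 for NT-KO males, 50.7 and 50.2 for WT females, 46.0 and 49.6 for NT-KO females. C1qc (ENSMUSG00000036896) had 30.0 and 45.9 for WT males, 47.8 and 36.8 for NT-KO males, 58.1 and 52.6 for WT females, 50 and 57.3 for NT-KO females. In each of the 3 genes the 4 female libraries were above the 4 male libraries without overlap.

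Csf1r (ENSMUSG00000024621), the receptor for CSF1 and IL-34 on which Kupffer cells depend, was at 23.5 and 31.1 CPM for WT males, 39.4 and 28.4 for NT-KO males, 41.6 and 51.0 for WT females, 39.5 and 51.3 for NT-KO females. The sexes did not overlap, but the first NT-KO libraries of the 2 sexes were almost level. Its count is uncertain, because 14.3% of the 50-base stretches of its transcripts also occur in Hmgxb3, which overlaps it on the opposite strand, and the strand setting of the counting is not given in the sources used here. None of the other 9 genes shared such a stretch with another gene or overlapped one.

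Adgre1 (ENSMUSG00000004730), present on most mouse tissue macrophages, had 7.49 and 10.3 CPM for WT males, 8.11 and 9.0 for NT-KO males, 8.73 and 12.1 for WT females, 8.23 and 13.4 for NT-KO females. It had the least difference between the sexes, and in both female groups the first library lay among the male values.

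**Figure D1:**
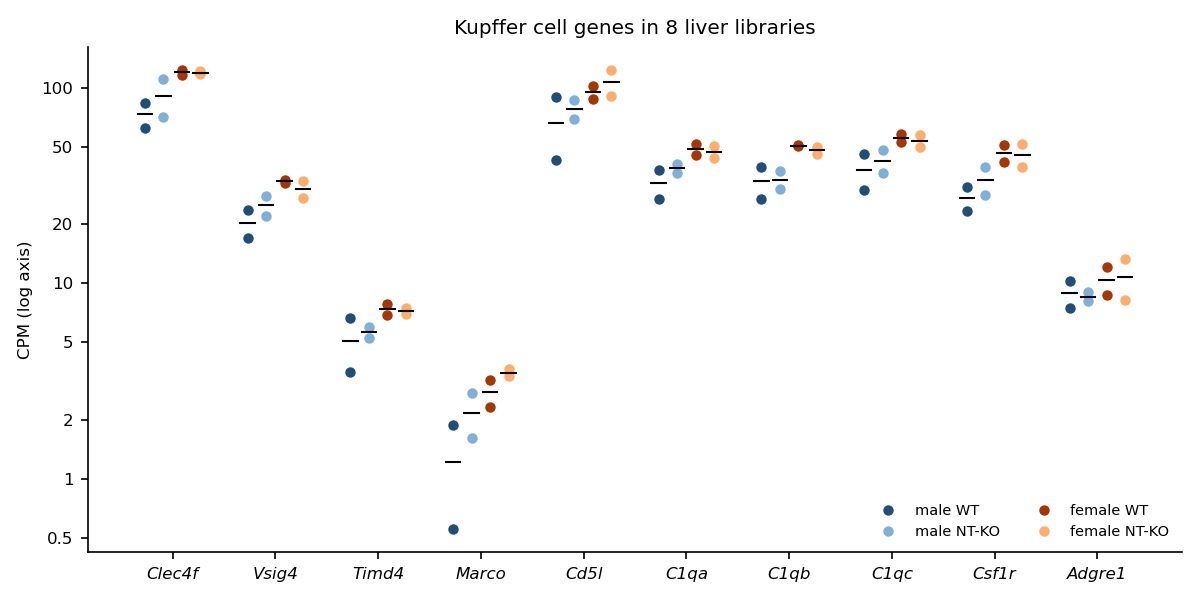
Level of the 10 Kupffer cell genes in the 8 liver libraries (y axis, CPM on a log scale; x axis, gene). Each point is a library, coloured by group, and the black bars are means of 2 libraries; for Clec4f the male points run from 62.5 to 110 and the female points from 116 to 123.

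The 10 genes moved together from library to library. The first male WT library was the lowest of 8 for all 10, with a mean of -0.77 on the log2 scale relative to each gene's own mean over the libraries. The other libraries had means of -0.07 (second WT male), -0.03 and -0.22 (NT-KO males), 0.27 and 0.26 (WT females) and 0.15 and 0.41 (NT-KO females). The first female WT library was the highest for 6 genes (Clec4f, C1qa, C1qb, C1qc, Vsig4 and Timd4), and the second female NT-KO library was the highest for the other 4. Within groups, replicate 2 exceeded replicate 1 for all 10 genes in male WT, with a median log2 difference of 0.52, and for all 10 in female NT-KO, with a median of 0.20. In NT-KO males it was higher for 2 of 10 (median -0.32) and in WT females for 3 of 10 (median -0.07). The median over all tested genes lay between -0.01 and 0.01 in each of these pairs. Single genes ran from 0.4 to 1.7 in male WT, 0.04 to 0.7 in female NT-KO, -0.64 to 0.74 in male NT-KO and -0.45 to 0.47 in female WT. The direction was therefore shared by all 10 genes in male WT and female NT-KO, and not in the other groups. The 10 genes are not independent measures of the groups. In RNA of whole liver, fewer Kupffer cells and less RNA of these genes per cell cannot be told apart.

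The first male WT library also stood apart in other cell type markers. It held the highest summed level of 5 erythroid genes, 1030 CPM against 184 to 481 in the other 7 libraries, and the highest sum of 5 hepatocyte genes, 114000 CPM against 74400 to 102000. The summed level of 9 sinusoidal endothelial genes was 274 CPM there, within the male range of 185 to 310, and that of 7 stellate cell genes was 370 CPM, within the male range of 287 to 395. Whether the erythroid or hepatocyte content had a part in the low Kupffer cell values was not tested.

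**Figure D2:**
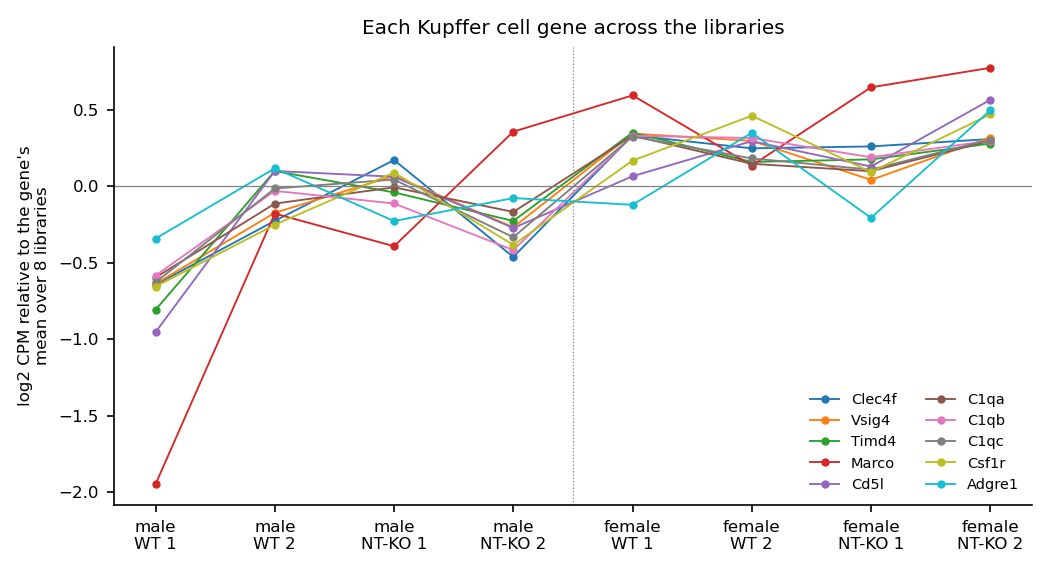
Log2 CPM of each Kupffer cell gene relative to its own mean over the 8 libraries (y axis) by library (x axis); each line joins the values of 1 gene, and the dotted line divides males from females. All 10 lines are lowest in the first male WT library, where their mean is -0.77, and Marco reaches furthest down.

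When each gene was set against C1qb in the same library, much of the shared movement fell away. The log2 ratio of C1qc to C1qb ranged over 0.29 across the 8 libraries, while C1qc alone ranged over 0.95. For Vsig4 the ratio ranged over 0.33 and the gene over 0.98, for Timd4 over 0.41 and 1.16, for C1qa over 0.42 and 0.93, and for Csf1r over 0.42 and 1.12. The ratio of Clec4f ranged over 0.48 and that of Cd5l over 0.64, against 0.98 and 1.52 for the genes. Adgre1 was different, since its ratio ranged over 0.79 and the gene itself over 0.84. Marco had the widest ratio, over 2.14 against 2.72 for the gene.

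The 3 C1q genes lie together on chromosome 4 in GRCm38 (chr4:136880129-136898803, minus strand), within 18675 bases, with gaps of 3616 bases between C1qb and C1qc and 2851 bases between C1qc and C1qa, and no other annotated gene in between. Of their summed level per kilobase, C1qa made up 37.3 to 42.8%, C1qb 33.9 to 39.4% and C1qc 23.2 to 25.2% over the libraries. These shares moved little, although the levels themselves ranged from 26 to 49.6 CPM per kilobase for C1qa and from 24.7 to 46.6 for C1qb. Per kilobase, C1qc was the lowest of the 3 in every library, but in CPM it was the highest in every library. The order therefore depends on the exon lengths used. These were 1931 bases for C1qc, which has 2 annotated transcripts, 1040 for C1qa and 1088 for C1qb.

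**Figure D3:**
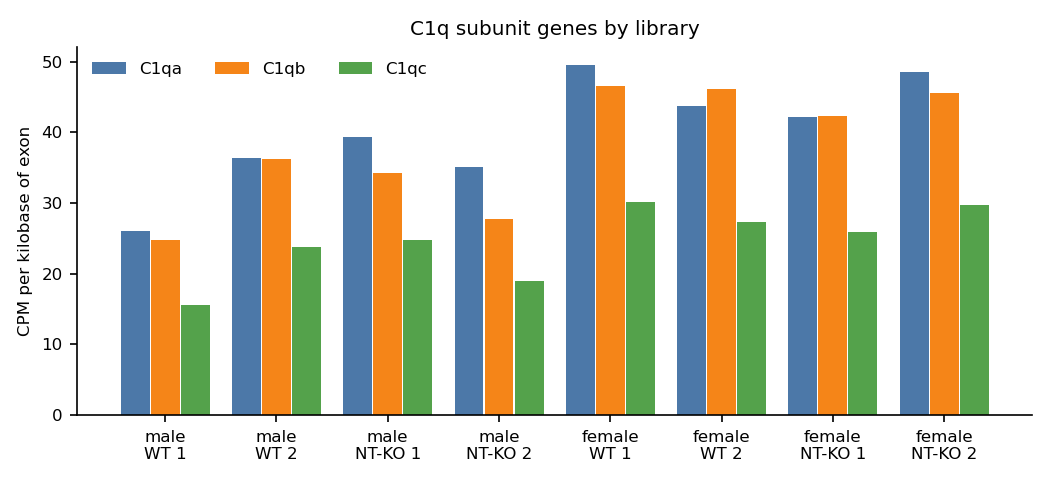
Level of C1qa, C1qb and C1qc per kilobase of exon (y axis, CPM per kilobase, from 0) in each of the 8 libraries (x axis); each bar is 1 library. C1qc is the lowest bar in every library, at 15.5 to 30.1 CPM per kilobase, an order that depends on the exon length used.

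The stretch of 250 bases before the start site was read for the genes that had one in the RefSeq table of GRCm38.p6, which were 7 of the 10. It was searched on both strands for GAGGAA, the core of the sequence bound by the macrophage factor PU.1. The letters occurred in Marco, Cd5l, C1qb, C1qc and Vsig4, 5 of 7, and in 23.3% of all 32851 stretches of this length in the table. The search also covered TATAAA, which occurred in 0 of 7 and in 12.4% of all, and TTGCNNCAA (N, any base), in 0 of 7 and 1.74% of all. These are matches of letters and not measured binding. The 3 stretches below are shown because they hold GAGGAA and end exactly at the annotated start in GENCODE as well. They are written 5′ to 3′ on the strand of the gene, and capitals mark GAGGAA or its reverse complement TTCCTC. The positions are chr1:120505025-120505274 on the minus strand for Marco, chr3:87357631-87357880 on the plus strand for Cd5l, and chrX:96293439-96293688 on the minus strand for Vsig4.
Marco: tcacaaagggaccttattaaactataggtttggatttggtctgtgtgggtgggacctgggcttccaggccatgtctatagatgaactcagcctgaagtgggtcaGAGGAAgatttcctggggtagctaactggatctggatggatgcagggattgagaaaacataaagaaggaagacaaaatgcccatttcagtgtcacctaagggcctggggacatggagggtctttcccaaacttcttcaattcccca
Cd5l: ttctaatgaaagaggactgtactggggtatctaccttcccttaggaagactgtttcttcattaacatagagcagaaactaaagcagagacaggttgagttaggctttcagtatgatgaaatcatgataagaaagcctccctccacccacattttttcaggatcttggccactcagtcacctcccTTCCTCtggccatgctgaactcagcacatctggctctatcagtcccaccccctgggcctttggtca
Vsig4: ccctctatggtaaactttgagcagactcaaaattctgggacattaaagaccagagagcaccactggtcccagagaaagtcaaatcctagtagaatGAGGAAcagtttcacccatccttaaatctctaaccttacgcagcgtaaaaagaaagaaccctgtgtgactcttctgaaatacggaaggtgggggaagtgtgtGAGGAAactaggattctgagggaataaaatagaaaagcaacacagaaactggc
The match begins 146 bases before the start site in Marco (-146), at -66 in Cd5l on the opposite strand, and at -155 and -53 in Vsig4.

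In males, no Kupffer cell gene passed the test between NT-KO and WT. By edgeR's quasi-likelihood test at an FDR of at most 0.05, 0 of 10 were called, against 0.0152% of all tested genes, and 0 had an unadjusted p under 0.05, against 11.5%. The likelihood ratio test and DESeq2 called 0 of 10 as well. Fitted values were higher in NT-KO for 9 of 10 genes, and their log2 fold changes had a median of 0.25 beside 0.01 for all genes. Marco had the largest, 0.86 (SE 0.523, 95% CI -0.34 to 2.06, FDR 0.57). Clec4f and Csf1r were both at 0.31 with FDRs of 0.661 and 0.656, Vsig4 at 0.30 (FDR 0.63), C1qa at 0.25 (FDR 0.662) and Cd5l at 0.24 (FDR 0.832). Timd4 and C1qc were at 0.16, C1qb at 0.02 and Adgre1 at -0.05. In no member did both libraries of one genotype lie above both of the other, which was so for 38.9% of all tested genes. The values rested on the first male WT library. Without it the median was -0.05, with 5 genes higher and 5 lower, and without the second male WT library it was 0.53, with all 10 higher. With 2 libraries per group the intervals were wide. For C1qb the interval ran from -0.44 to 0.49, and for Cd5l from -0.51 to 0.99.

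In females the genotypes lay closer together. Again 0 of 10 genes were called, against 0.00762% of all tested genes, with 0 at an unadjusted p under 0.05 against 1.55%, and 0 by the likelihood ratio test or DESeq2. The log2 fold changes ran from -0.13 for Vsig4 (SE 0.206, 95% CI -0.60 to 0.34) to 0.33 for Marco (SE 0.493, 95% CI -0.80 to 1.46), with a median of -0.03, and 3 of 10 were above 0. Clec4f was at -0.01 (95% CI -0.55 to 0.53) and C1qa at -0.04 (95% CI -0.48 to 0.40). Both NT-KO libraries were above both WT libraries for Marco and below them for C1qb, so 2 of 10 genes were separated, against 26.4% of all tested genes. The direction turned with single libraries, with a median of 0.05 without the first NT-KO library and -0.14 without the second. It was 0.03 without the first WT library and -0.07 without the second.

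Over both sexes the difference between NT-KO and WT was called for 0 of 10 genes, against 0.0152% of all, with 0 at an unadjusted p under 0.05 against 5.42%. The median was 0.09, and the range ran from -0.03 for C1qb to 0.60 for Marco (SE 0.359, 95% CI -0.23 to 1.42, FDR 0.973). A test of whether the genotype difference itself differed between the sexes likewise called 0 of 10, against 0.0152%, and 0 had an unadjusted p under 0.05, against 7.2%. For both, the likelihood ratio test and DESeq2 called 0 of 10. The female minus male difference had a median of -0.25 and reached from -0.53 in Marco (95% CI -2.18 to 1.11) to 0.10 in Adgre1 (95% CI -0.82 to 1.02). Without the first male WT library this median was 0.10. Between WT and NT-KO, then, no change in these genes was detectable with 2 libraries per group.

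**Figure D4:**
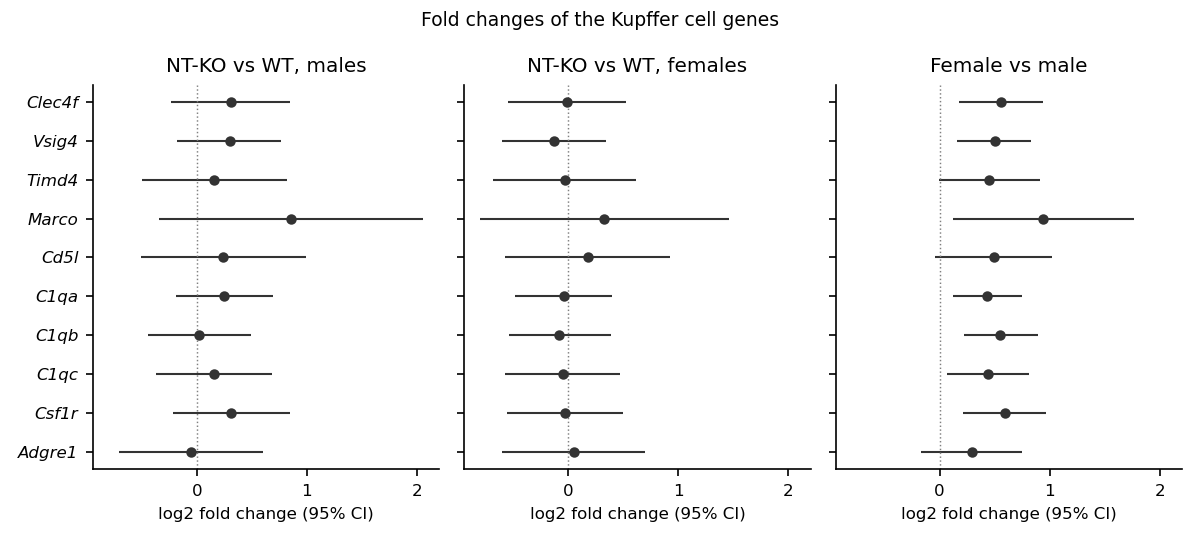
Log2 fold changes with 95% confidence intervals (x axis) of the 10 Kupffer cell genes (y axis) for NT-KO vs WT in males and in females and for female vs male over both genotypes, from the quasi-likelihood fit. Every interval of the first 2 panels crosses 0, and in the third all 10 points are above 0, from 0.29 to 0.94.

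Between the sexes, all 10 genes had higher values in females, by 21.8% for Adgre1 to 84.6% for Marco in mean CPM, yet none passed the test. The quasi-likelihood test, over both genotypes, called 0 of 10 at an FDR of at most 0.05. Among all 13117 tested genes it called 7.84%, of which 4.12% were higher and 3.72% lower in females. At an unadjusted p under 0.05 there were 7 of 10 genes, against 26.9% of all. The smallest FDRs lay just above the threshold. The median log2 fold change was 0.49, beside -0.01 for all tested genes.

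C1qb had the smallest FDR. It averaged 33.5 ± 5.92 CPM in males and 49.1 ± 2.13 in females (SD, n = 4), a log2 fold change of 0.55 (SE 0.144, 95% CI 0.22 to 0.89, FDR 0.0548 by edgeR). Csf1r averaged 30.6 ± 6.62 and 45.9 ± 6.20, with a log2 fold change of 0.59 (SE 0.164, 95% CI 0.21 to 0.97, FDR 0.0651). Vsig4 stood at 22.7 ± 4.45 and 31.8 ± 2.94, a difference of 0.50 (SE 0.146, FDR 0.076), and Clec4f at 81.7 ± 20.8 and 120 ± 3.22, a difference of 0.56 (SE 0.166, FDR 0.078). The other C1q genes had differences of 0.43 for C1qa (SE 0.136, FDR 0.0891) and 0.44 for C1qc (SE 0.161, FDR 0.126).

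Marco had the largest difference and the widest error, 0.94 (SE 0.36, 95% CI 0.12 to 1.77, FDR 0.142). For Timd4, Cd5l and Adgre1 the interval included 0. They were at 0.45 (95% CI -0.01 to 0.91, FDR 0.194), 0.49 (95% CI -0.04 to 1.02, FDR 0.216) and 0.29 (95% CI -0.17 to 0.75, FDR 0.397).

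For 6 of 10 genes, Clec4f, Timd4, C1qa, C1qb, C1qc and Csf1r, all 4 female libraries lay above all 4 male libraries, which was so for 8.5% of all tested genes. The trait was not particular to these genes. Of the lists described below, it held for 5 of 11 other Kupffer cell genes, 5 of 18 macrophage genes and 3 of 6 niche signals. It also held for 4 of 9 sinusoidal endothelial genes and 3 of 7 tested uptake genes. Of 5 hepatocyte genes it held for 0. Within WT, both female libraries were above both male libraries for 8 of 10 genes, against 31.4% of all, with Cd5l and Adgre1 the exceptions. Within NT-KO this held for 8 of 10, against 17.4%, with Vsig4 and Adgre1 the exceptions. The median log2 fold change was 0.59 within WT and 0.38 within NT-KO, and each of the 10 genes was higher in females in both. In neither genotype alone was any of the 10 called by the quasi-likelihood test. Of all tested genes it called 845 within WT and 244 within NT-KO, against 1028 over both genotypes. In WT 7 of the 10 and in NT-KO 1, C1qb, had an unadjusted p under 0.05. The share of all genes under that p within a genotype was not counted. Since the 10 genes moved together between the libraries of WT males and of NT-KO females, their number adds little to the 4 livers of each sex.

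Whether these differences counted as significant depended on the test. The likelihood ratio test, which goes with the edgeR model fit (glmFit) that the study's methods name, called 4 of 10, Clec4f (FDR 0.0347), Vsig4 (FDR 0.0408), C1qb (FDR 0.015) and Csf1r (FDR 0.0191), and it called 13.4% of all tested genes. DESeq2 called the same 4, with FDRs of 0.0176, 0.032, 0.0116 and 0.0135, and it called 1849 of all 13117 tested genes. Scaling by library size only called 5, the same 4 and C1qa, but it also moved the median of all genes to 0.12 and the share of higher genes among those called from 52.5% to 77.1%. The first male WT library pulled the male means down. Without it the 10 genes were still all higher in females, with a median of 0.35. Without the second male WT library the median was 0.68, and without the first male NT-KO library it was 0.58.

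Other genes typical of Kupffer cells followed the same order. Of 11 such genes, 10 had higher values in females, with a median of 0.55, and 4 passed the quasi-likelihood test, all rising. Cfp, which encodes properdin, the stabiliser of the alternative complement pathway, rose from 16.9 ± 3.24 to 30.4 ± 3.42 CPM, or by 0.84 on the log2 scale (SE 0.16, FDR 0.0184). Il18bp, which encodes a secreted inhibitor of IL-18, rose by 0.77 (SE 0.152, FDR 0.0219), the lectin receptor gene Clec1b by 0.66 (SE 0.157, FDR 0.0423) and the folate receptor gene Folr2 by 0.94 (SE 0.23, FDR 0.0452). Slc40a1, the iron exporter ferroportin, and Nr1h3, the nuclear receptor LXR alpha, had the highest levels of the list, and neither passed, with 0.12 (FDR 0.733) and 0.11 (FDR 0.567). Both are also made outside macrophages.

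Of 18 general macrophage genes, 17 had higher values in females, with a median of 0.45, and 1 passed the quasi-likelihood test. The list sums, 273 to 370 CPM in males and 386 to 431 in females, did not overlap, whereas those of the other Kupffer cell genes, 395 to 495 and 451 to 492, did. Lyz2, lysozyme, was at 0.31 (FDR 0.198). The 1 gene with a lower value was Mpeg1, which encodes perforin-2, at -0.18 (FDR 0.513).

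Of 6 genes for signals of the Kupffer cell niche (Csf1, Il34, Dll4, Gdf2, Bmp10 and Tgfb1), 0 were called and all 6 had values above 0, with a median of 0.30. Gdf2, the BMP9 gene of stellate cells, was at 0.09 (FDR 0.568) and Csf1 at 0.15 (FDR 0.717). Of 7 tested genes for the uptake of dying cells, 6 had higher values in females, with a median of 0.53. The list sums, 191 to 241 CPM in males and 261 to 301 in females, did not overlap. The bridging molecules Gas6 (1.34, FDR 0.0224) and Mfge8 (0.62, FDR 0.0375) rose and Pros1 (-0.57, FDR 0.0452) fell. Of 10 genes for iron and haem recycling, 0 were called, with a median of 0.21. Hpx, the plasma haem carrier made by hepatocytes, was at -0.96 (FDR 0.054) and Ftl1, a ferritin subunit, at 0.26 (FDR 0.414).

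Most genes for the complement proteins that act with C1q went the other way. C1s1, a protease of the C1 complex, fell in females by 0.54 on the log2 scale (FDR 0.0427), and C2, which the C1 complex cleaves, fell by 0.66 (FDR 0.0427). Of the 8 genes 3 were called, all falling, and 7 of 8 had lower values, with a median of -0.51. C3, the most abundant, was the exception at 0.33 (FDR 0.162), and C4b was at -0.49 (FDR 0.101). The list sums overlapped, at 8540 to 9720 CPM in males and 8130 to 10200 in females. These genes are made largely by hepatocytes.

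**Figure D5:**
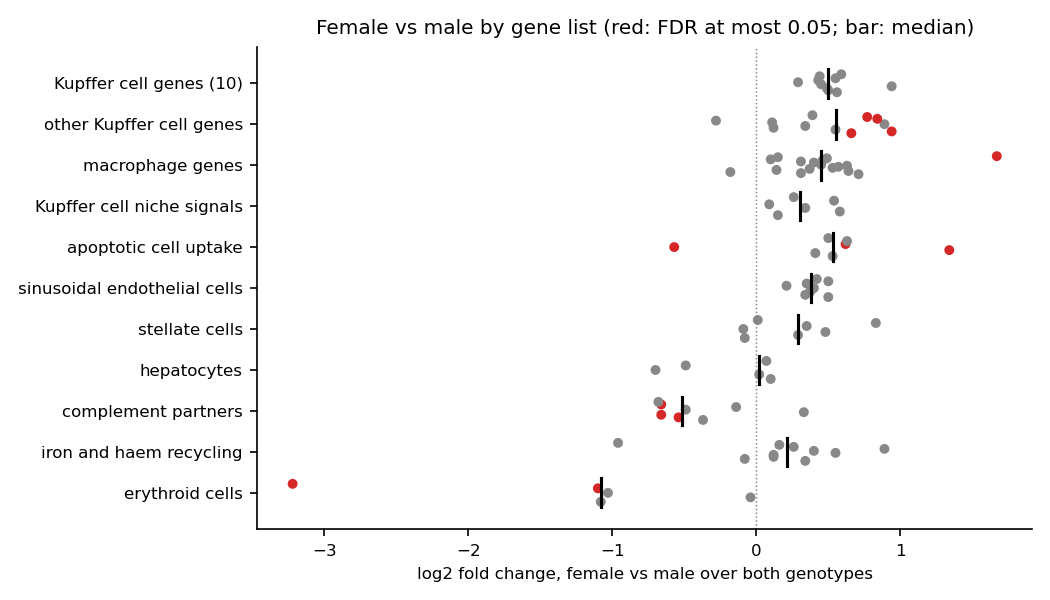
Log2 fold change of each tested gene, female vs male over both genotypes (x axis), by gene list (y axis); points are genes, red where the FDR is at most 0.05, and bars are medians. The Kupffer cell genes have a median of 0.49 with no red point, beside 0.55 in the other Kupffer cell genes, 0.38 in sinusoidal endothelial genes and 0.02 in hepatocyte genes.

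Markers of the other cells of the liver also moved with sex. All 9 sinusoidal endothelial genes had higher values in females, with a median of 0.38 and 0 called. Their summed level ran from 185 to 310 CPM in males and from 304 to 347 in females, so it overlapped where the sum of the 10 Kupffer cell genes, 242 to 406 against 434 to 511, did not. Clec4g and Fcgr2b, the most abundant, were at 0.34 (FDR 0.137) and 0.35 (FDR 0.199). Of 7 stellate cell genes 5 had higher values, with a median of 0.29, 0 called, and sums of 287 to 395 against 397 to 455 CPM, which did not overlap either. Dcn was at -0.09 (FDR 0.754) and Ecm1 at 0.83 (FDR 0.0527). Only 2 of the 7 stellate cell genes had every female library above every male library. Ecm1 was one of them, at 67.3 to 112 CPM in males and 120 to 196 in females. The stellate sums therefore depend much on Ecm1 and do not show that the list as a set separated the sexes. The 5 hepatocyte genes had a median of 0.02 with 0 called, Alb at 0.10 (FDR 0.783) and Apoa1 at -0.70 (FDR 0.181), and sums of 74400 to 114000 against 87300 to 101000 CPM. Of 4 cholangiocyte genes Epcam rose (1.12, FDR 0.0377), and the sums overlapped, at 4.43 to 7.88 against 4.98 to 6.91 CPM. The 5 erythroid genes all had lower values in females, at 184 to 347 CPM in sum against 401 to 1030, and Alas2 (-3.22, FDR 0.000248) and Hbb-bt (-1.10, FDR 0.0497) fell. The part of these cell types in the sex difference of the Kupffer cell genes was not tested.

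Blood-derived myeloid cells left few reads. Of 11 genes of monocytes and recruited macrophages 3 reached the level for testing and 0 were called, with a median of 0.40 and sums of 35.8 to 61.7 CPM in males and 46.1 to 74.9 in females. Most of that sum was Spp1, which other liver cells make too. Ly6c2 averaged 0.596 CPM and Chil3 0.122. Of 10 neutrophil genes 2 were tested, with 0 called, and Ly6g averaged 0.0128 CPM. The neutrophil sums were 2.16 to 8.43 in males and 1.64 to 3.48 in females. Of 7 dendritic cell genes 2 were tested, and Clec9a rose (1.04, FDR 0.022), with sums of 8.66 to 13.9 against 13.3 to 18 CPM. The annotated span of Clec9a (chr6:129408862-129424763) overlaps that of Clec1b (chr6:129397297-129409335) on the same strand. Whether reads of one gene entered the count of the other was not tested. No marker on these 3 lists was at 0 in every library.

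Lymphocyte genes were also low. Of 11 T and NK cell genes 3 were tested. Gzma (1.91, FDR 0.0137) and Lck (1.01, FDR 0.0365) rose, and Cd4 (-1.70, FDR 0.00719) fell, with list sums of 3.69 to 4.88 against 5.21 to 9.41 CPM. Cd4 was the only gene of the list with a lower mean in females. Among the untested genes, Cd3e averaged 0.155 CPM in males and 0.477 in females, and Cd8a 0.162 and 0.407. Among 7 tested B cell genes 3 rose, with Cd79b at 1.84 (FDR 0.0108) and Cd79a at 1.60 (FDR 0.0115), and Jchain (-1.34, FDR 0.0463) fell, with sums of 11.5 to 81.2 against 14.8 to 35.4 CPM. Between NT-KO and WT, in either sex, over both or in their difference, 0 genes of any of these 16 lists were called by the quasi-likelihood test. The likelihood ratio test called 3 B cell genes in males and 3 for the difference between the sexes, and 0 genes of the other 15 lists in any of these comparisons. The summed B cell level was 11.5 and 14.3 CPM for WT males and 50.9 and 81.2 for NT-KO males. By the quasi-likelihood fit the antibody genes Ighm, Igkc and Jchain were at 2.87 (FDR 0.243), 2.23 (FDR 0.17) and 2.36 (FDR 0.167) in NT-KO males against WT males.

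The genes whose profile over the 8 libraries was most like the mean of the 10 were found by the smallest root mean square difference of centred log2 CPM. The closest was Trim30a, at 0.083, with 5.37 and 8.59 CPM for WT males, 8.19 and 6.67 for NT-KO males, 10.4 and 10.1 for WT females, 9.56 and 10.2 for NT-KO females. Its lowest value was in the first male WT library. Next came P2ry13 (0.0936), Ctss (0.101), Cd300c2 (0.107), Tbc1d10a (0.109), Pirb (0.112), Ifi203 (0.112), Jpx (0.114), Gab2 (0.115) and Apobec3 (0.115). Of these 10, only Ctss, the lysosomal protease cathepsin S, was on one of the lists, that of macrophage genes.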

How the data were processed

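Reads from 8 liver libraries were trimmed with cutadapt and aligned to GRCm38 with STAR 2.6.1a, and the authors deposited raw featureCounts counts per Ensembl gene, without normalization. Strand and multi-mapping settings are not given in the sources used here. Each sample is labelled as a separate liver. Of 49671 IDs, 49412 matched GENCODE M21. A gene was tested if 2 or more libraries reached 1 CPM, with mitochondrial, miRNA and rRNA genes dropped, which kept 13117. Groups came from the labels. TMM-scaled counts of all 8 libraries were fitted with a mean per group by edgeR 4.0.16 in R 4.3.3 (quasi-likelihood test, two-sided, Benjamini-Hochberg FDR over all tested genes). The fit was tested on simulated data. SE is the log2 fold change divided by the square root of F, and intervals use its t quantile. List sums are of CPM and include untested genes.

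Alternatives were the likelihood ratio test, DESeq2 1.42.0, RLE or library size scaling, other filters, a replicate block, the libraries of 1 sex, and each library left out. Comparisons within 1 genotype were added after seeing the data. The members and lists were chosen with earlier results of these data known. Named were the members, the called genes and the 2 most abundant genes of the main lists, the 10 most similar profiles, Lbr and Xist, and single low markers named after their values were seen. The values of 3 called list genes are not reported here.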

Additional observations from a re-analysis of the deposited data

How the results depend on the processing

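No Kupffer cell gene was called between NT-KO and WT under any alternative, in males, in females, over both sexes or for the difference between the sexes. Between the sexes all 10 had higher values under every alternative, and the number called was 4 under the likelihood ratio test and DESeq2, 5 with library size only, 7 with no filter beyond 1 count, and 0 to 4 with a library left out (4 without the second male WT library, 2 without the first male NT-KO library). With RLE size factors, filterByExpr, the replicate block and within either genotype it was 0. The mean log2 CPM of the 10 genes in WT females was 4.88 and moved to 4.96 with library size only, and it lay at 4.88 to 4.89 without either female WT library. Over all tested genes, and in the order males, females, both sexes, difference between the sexes, and female vs male, the calls of 2, 1, 2, 2 and 1028 became 254, 11, 51, 46 and 1757 under the likelihood ratio test, 308, 5, 62, 62 and 1849 under DESeq2, and 917, 194, 445, 552 and 2722 with no filter beyond 1 count. In males they became 4 with library size only and 6 with filterByExpr, in females 0 in a fit of the 4 libraries of that sex, and for female vs male 244 within NT-KO. With a library left out they ranged from 2 to 27 in males (27 without the first male WT library), were 0 in females throughout, and ranged from 0 to 9 over both sexes, from 1 to 7 for the difference and from 464 to 1205 for female vs male. The causes were not tested. The labels number the replicates in every group, but same-numbered libraries did not deviate together (correlation of -0.00665 in males and 0.023 in females). With the replicate block, calls were 3 in males, 0 in females, 2 over both sexes, 2 for the difference and 768 for female vs male.

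Several of the uncalled genotype differences turned sign. In males Adgre1 was at 0.01 with library size only. With a library left out, the log2 fold change in males ranged from -0.04 to 0.59 for Clec4f, -0.19 to 0.86 for Cd5l, -0.23 to 0.68 for Timd4, -0.26 to 0.19 for Adgre1, -0.23 to 0.33 for C1qb and -0.12 to 0.49 for C1qc. In females it ranged from -0.05 to 0.03 for Clec4f, -0.05 to 0.38 for Cd5l, -0.12 to 0.07 for Timd4, -0.34 to 0.36 for Adgre1, -0.14 to 0.06 for C1qa, -0.15 to 0.05 for C1qc and -0.23 to 0.15 for Csf1r. Over both sexes it ranged from -0.03 to 0.29 for Clec4f, -0.03 to 0.21 for Vsig4, -0.01 to 0.52 for Cd5l, -0.13 to 0.32 for Timd4, -0.01 to 0.24 for C1qa, -0.15 to 0.13 for C1qb and -0.08 to 0.22 for C1qc. The difference between the sexes ranged from -0.59 to 0.03 for Clec4f, -0.68 to 0.38 for Cd5l, -1.65 to 0.12 for Marco, -0.71 to 0.20 for Timd4, -0.29 to 0.41 for Adgre1, -0.41 to 0.15 for C1qb and -0.54 to 0.07 for C1qc. A group left with 1 library was taken to vary like the others. Depth limits Marco, whose lowest count was 29. The lowest count of the other 9 genes was 185, in Timd4.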
